A study of Rattus norvegicus with 10 samples.

Results

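The subunits of the respiratory chain and of ATP synthase were examined complex by complex in rat liver after oral treatment with RG3487, a compound known as a ligand of nicotinic acetylcholine receptors. Members were all probe sets whose platform annotation named exactly 1 gene, with a symbol beginning Ndufa, Ndufb, Ndufc, Ndufs or Ndufv (complex I), equal to Sdha to Sdhd (complex II), or beginning Uqcr (complex III), Cox4 to Cox8 (complex IV) or Atp5 (complex V, ATP synthase). Assembly factors named Ndufaf or Sdhaf were left out of the members. This gave 79 probe sets of 73 genes, out of 15859 probe sets other than controls and 9378 genes that a probe set named singly. There were 37 probe sets of 35 genes in complex I, 5 of 4 in complex II, 8 of 7 in complex III, 11 of 11 in complex IV and 18 of 16 in complex V. A further 7 probe sets were left out because they named several genes.

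The vehicle group was 5 Wistar Han rats, strain CRL:WI (Han), given deionized water by gavage, and the treated group was 5 rats of the same strain given RG3487 at 180 mg/kg by the same route. Both groups were 6 to 8 weeks old, received 5 ml/kg, and gave a piece of the left lateral liver lobe. By the sample labels the livers were taken after 24 h, whereas the series text gives 2 h. Each liver was hybridised to 1 Affymetrix array, and the labels state no sex and no array batch. The animals were housed in groups of 5, so cage and treatment cannot be told apart. A whole piece of lobe was measured, and in such bulk tissue fewer cells of a type and less RNA per cell cannot be told apart.

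Complexes I to IV sit in the inner mitochondrial membrane, pass electrons from NADH or succinate to oxygen, and, except for complex II, pump protons. ATP synthase lets the protons flow back and makes ATP. Most subunits are encoded in the nucleus and imported, and the mitochondrial genome encodes the remaining core subunits of every complex but the second; the members here are nuclear genes. The liver relies on this system for the ATP and the redox balance that gluconeogenesis, urea synthesis and fatty acid oxidation require.

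The values were MAS5 signals on a linear scale, whose mean per array lay between 330 and 332. The median signal per array was 85 to 93 in the vehicle group and 92 to 96 with RG3487. Pairs of arrays within a group correlated at 0.979 to 0.986 on the log2 scale, and pairs across groups at 0.968 to 0.978, so no array stood apart from its group. The ratio of the 3′ to the 5′ control probe set, a sign of RNA integrity, was 1.14 to 1.24 for GAPDH in the vehicle group and 1.12 to 1.18 with RG3487, and 2.97 to 3.60 and 2.73 to 3.54 for beta-actin. Of 7 probe sets for hepatocyte markers, 0 were higher and 3 lower, and their summed signal was 44238 to 46970 in the vehicle group and 36366 to 43381 with RG3487. The hepatocyte genes that were lower were Serpina1, Apoa1 and Tat. With the quantile normalization described below, Serpina1 (0.02) and Apoa1 (-0.03) were no longer lower (limma adjusted p = 0.668 and 0.72). They were not with scaling to hybridization controls either (limma adjusted p = 0.345 and 0.909), whereas Tat stayed lower in both. With each array centred on its median, Serpina1 (-0.22) and Apoa1 (-0.26) stayed lower (limma adjusted p = 0.022 and 0.00988), as did Tat. Ttr and Cyp2e1 were called lower there as well (limma adjusted p = 0.0273 and 0.0338). Of all probe sets tested 20.5% were higher and 7.16% lower, and of those with a mean signal of 2000 or more, which include Serpina1 and Apoa1, 33% were lower. Of 6 tested for Kupffer cells and 6 for endothelial cells, 1 each was lower, Cd163 and Lyve1, and 0 were higher. A second Lyve1 probe set was not called (-0.23, limma adjusted p = 0.068). Summed over each whole list, untested probe sets included, the signals were 2256 to 2939 against 1901 to 2510 for Kupffer cells. For endothelial cells they were 2853 to 3228 against 2409 to 2840. Among stellate cell markers 1 of 4 tested, Col1a1, was higher (1346 to 1810 against 1527 to 1725 in sum over the whole list). Of erythroid markers 0 of 2 were called, and neither was the 1 tested for bile duct or for lymphocytes. The adipocyte list had 1 probe set analysed here, that of Cidea, which was lower (186 to 332 against 99 to 305, with overlap). Muscle markers had no probe set analysed here. The part of these shifts in the results below was not tested.

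Of the 79 member probe sets, 75 passed a filter that left out the dimmest 25% of probe sets, and these were tested with limma on log2 of signal plus 16, together with all 11894 probe sets retained. A probe set was called at a Benjamini-Hochberg adjusted p under 0.05. With RG3487, 19 members were higher (25.3%), 3 were lower and 53 were not called. Among all probe sets tested 20.5% were higher and 7.16% lower, so the share of members called higher lay near the background for the arrays as deposited. The median log2 change of the members was 0.08, and that of all probe sets was also 0.08. The 3 that fell were Sdha of complex II, Ndufv1 of complex I and Atp5f1a of complex V, each of which carries or helps form a catalytic site. The 2 largest rises were those of Atp5if1, the inhibitor of ATP synthase, and Ndufs4, a complex I subunit.

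These counts depended on how the arrays were scaled. With quantile normalization 18 of the 75 tested members were higher and 4 lower, against 11.9% and 10% of all probe sets. The share of members called higher lay above the background there. With each array centred on its median 7 were higher and 5 lower, against 11.4% and 11.2%. Both shares of members lay below the background there. With arrays scaled to the bacterial and phage transcripts added as hybridization controls 60 of 75 were higher and 0 lower, against 56.2% and 2.98%. The share called higher again lay above the background, and the median change of all probe sets moved from 0.08 to 0.28. This control-based scaling assumes that equal amounts were added to every sample, and no label states the amounts. The mean log2 signal of the controls was 9.85 to 9.94 in vehicle arrays and 9.67 to 9.74 with RG3487, without overlap. The shift that this scaling makes thus follows the treatment groups, and the cause of the difference was not tested. Relative to the median of all probe sets, the members' median was -0.0017 as deposited, centred or scaled to the controls, and 0.06 with quantile normalization. Centring and control-based scaling subtract a constant from each array, so they could not alter the -0.0017. Of the 22 calls, 6 were made under all 4 scalings, and all 6 were rises: Atp5if1, Atp5mk, Ndufab1, Ndufa8, Ndufb7 and Ndufc2. Control-based scaling raised every log2 change by the same amount, which favours rises, so this count cannot compare rises with falls. It brought Sdha to -0.16, Ndufv1 to -0.03 and Atp5f1a to -0.02, and each of these falls was called under the other 3 scalings. The signals of the vehicle and RG3487 livers did not overlap in 13 members that were higher (17.3%) and 3 that were lower (4%), against 13.9% and 4.48% of all probe sets.

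**Figure D1:**
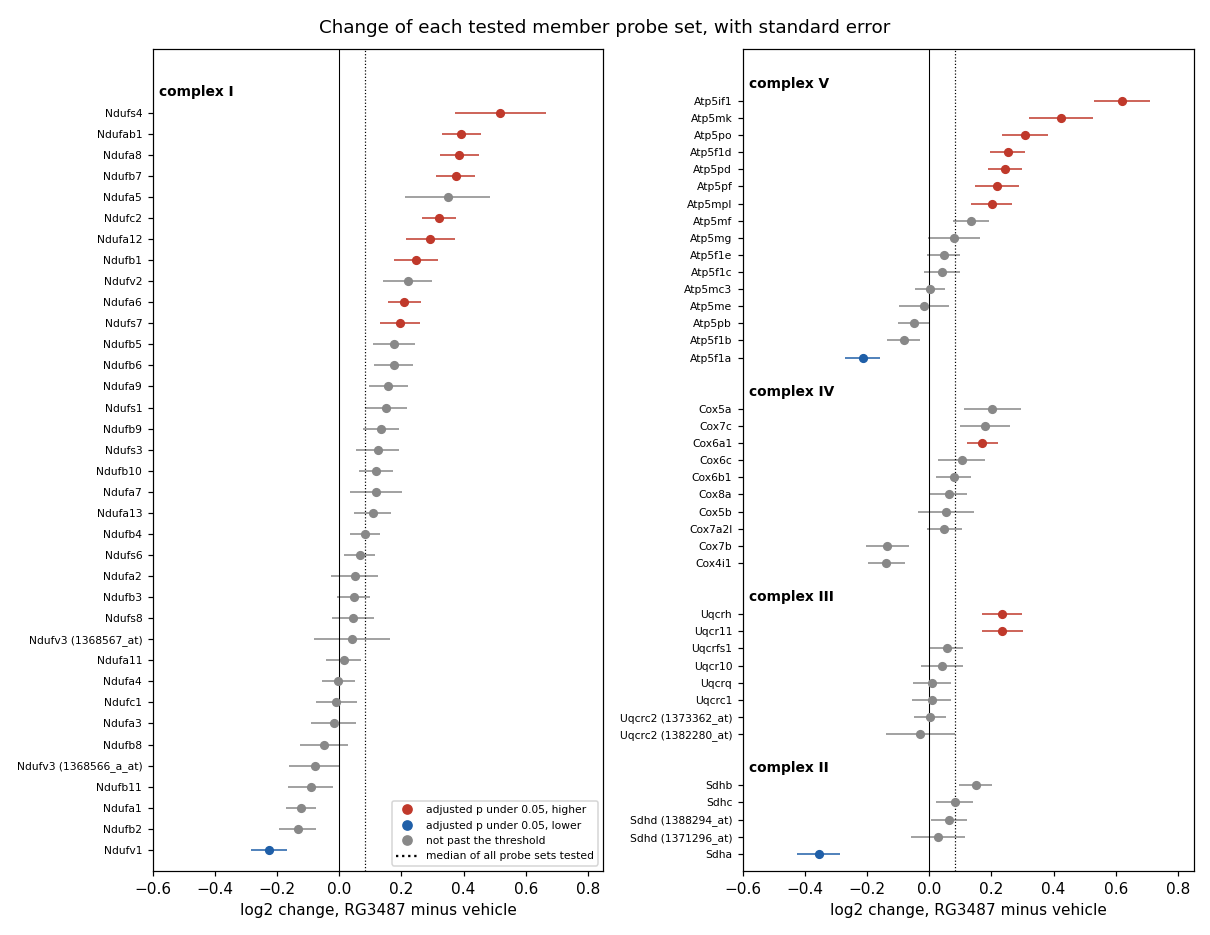
Log2 change (RG3487 minus vehicle, horizontal axis) of the 75 tested member probe sets, by complex, with the standard error from limma as bars. Red points are the 19 called higher, blue points the 3 called lower (Ndufv1, Sdha, Atp5f1a), grey points were not called, and the dotted line marks the median of all probe sets tested (0.08).

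**Figure D2:**
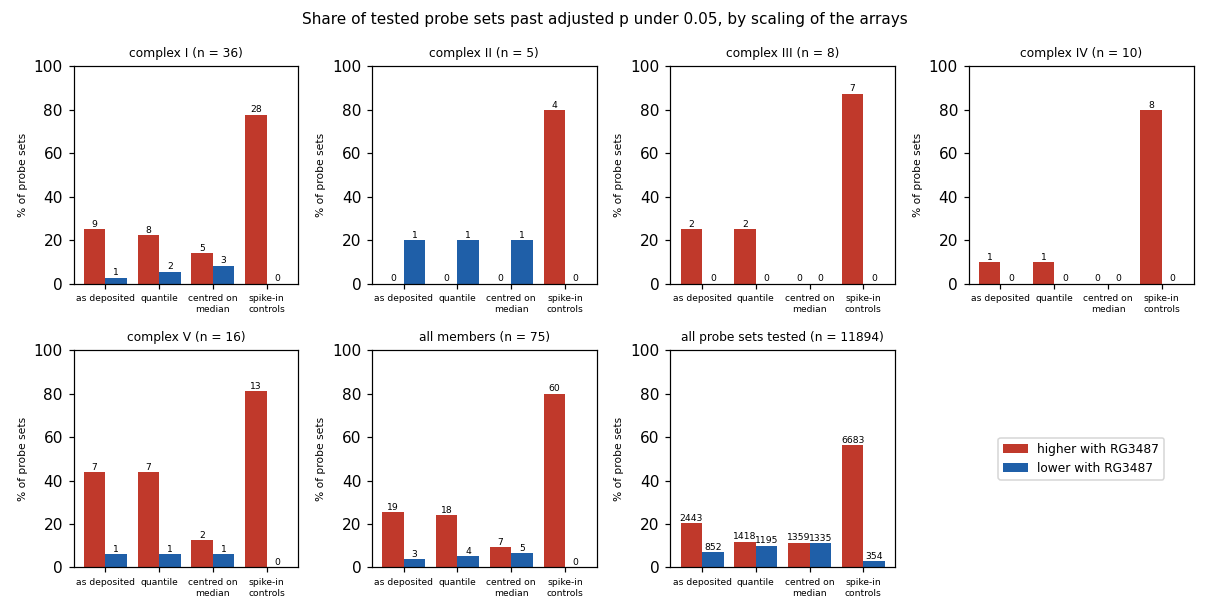
Share of tested probe sets called higher (red) or lower (blue) with RG3487, in percent, for each complex, all members and all probe sets tested, under 4 scalings of the arrays; the number over a bar is the count. Members called higher numbered 19 as deposited, 18 with quantile normalization, 7 with centred arrays and 60 with hybridization controls.

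The promoters of the genes named above were read from RefSeq windows of the GRCr8 build, which run from 250 bases before to 50 after each gene's start. A window was found for 66 of the 73 member genes. The 250 bases before the start are shown for Atp5if1 and Ndufb7, which rose under all 4 scalings, Atp5po, the riser with an NRF1 match, and Sdha and Ndufv1, which fell in all but the control-based scaling. They run 5′ to 3′ on the gene's strand, and capitals mark matches to a searched motif.
Atp5if1, chr5:150026678-150026927, minus strand: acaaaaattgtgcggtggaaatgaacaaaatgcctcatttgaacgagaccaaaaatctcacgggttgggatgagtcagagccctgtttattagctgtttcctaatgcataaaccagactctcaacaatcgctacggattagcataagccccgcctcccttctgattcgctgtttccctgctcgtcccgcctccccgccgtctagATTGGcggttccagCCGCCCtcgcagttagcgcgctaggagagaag
Atp5po, chr11:44657484-44657733, minus strand: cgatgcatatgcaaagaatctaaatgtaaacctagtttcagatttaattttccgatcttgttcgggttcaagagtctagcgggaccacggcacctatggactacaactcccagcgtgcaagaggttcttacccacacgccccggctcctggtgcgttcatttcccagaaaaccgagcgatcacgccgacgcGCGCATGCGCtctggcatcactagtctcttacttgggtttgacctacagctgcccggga
Ndufb7, chr19:41477292-41477541, minus strand: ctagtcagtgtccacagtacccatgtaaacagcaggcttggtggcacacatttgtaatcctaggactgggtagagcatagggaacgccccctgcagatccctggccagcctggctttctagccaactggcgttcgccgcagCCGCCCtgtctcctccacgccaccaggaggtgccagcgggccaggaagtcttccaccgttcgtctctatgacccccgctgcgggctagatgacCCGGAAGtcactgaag
Sdha, chr1:30764303-30764552, plus strand: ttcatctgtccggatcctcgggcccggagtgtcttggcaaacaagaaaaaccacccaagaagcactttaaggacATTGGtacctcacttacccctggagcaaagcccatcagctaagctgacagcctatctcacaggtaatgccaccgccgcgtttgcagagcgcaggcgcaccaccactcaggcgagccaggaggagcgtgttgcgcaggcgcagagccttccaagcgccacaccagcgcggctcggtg
Ndufv1, chr1:210734892-210735141, minus strand: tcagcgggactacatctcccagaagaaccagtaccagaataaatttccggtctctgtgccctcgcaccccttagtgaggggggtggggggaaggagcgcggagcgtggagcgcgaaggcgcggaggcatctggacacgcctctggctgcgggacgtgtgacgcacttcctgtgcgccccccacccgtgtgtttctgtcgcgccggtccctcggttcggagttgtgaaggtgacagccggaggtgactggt
Motifs were searched as exact letters on both strands. NRF1, searched by its palindromic consensus, and the ETS family factor GABPA (CCGGAAG) are known activators of nuclear genes for the respiratory chain, as is YY1 (AAGATGGC), and ERRA binds AAGGTCA. The ETS motif was in 20 of 66 member windows (30.3%) and in 8.75% of all windows. The YY1 motif was in 15 (22.7%, against 3.17%), the ERRA motif in 11 (16.7%, against 4.61%) and the NRF1 motif in 3 (4.55%, against 0.852%). CCAAT (21 windows, 31.8% against 37.5%) and the Sp1 motif GGGCGG (28 windows, 42.4% against 33.1%) were closer to the share of all windows. None of these motifs contains another. Among the 15 genes with a window and a called rise, 5 held the ETS motif, 5 the YY1 motif and 1 the ERRA motif. Of the 48 that were not called, 14, 10 and 9 held them; this is a description with no test. Neither Sdha nor Ndufv1 held the ETS, YY1, ERRA or NRF1 letters in this window, while Atp5f1a held the ETS and ERRA letters.

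In complex I, the NADH dehydrogenase, 9 of 36 tested probe sets rose (25%, near the 20.5% of all probe sets) and 1 fell (2.78%, against 7.16%), with a median log2 change of 0.12 and a range from -0.23 to 0.52. With quantile normalization the median was 0.07, and that of all probe sets fell to 0.01. Relative to all probe sets, the median of complex I was 0.03 as deposited and 0.06 with quantile normalization. There 8 probe sets rose and 2 fell, beside 11.9% and 10% of all probe sets. With centred arrays 5 rose and 3 fell, beside 11.4% and 11.2% of all probe sets. Complex I has an N module that takes electrons from NADH, a Q module that hands them to ubiquinone, and a membrane arm that pumps protons. Of 11 tested probe sets of the N module 3 rose (27.3%) and 1 fell, of 5 of the Q module 1 rose (20%), and of 19 of the membrane arm 5 rose (26.3%) and 0 fell, all shares near that of all probe sets. Ndufa4 was counted in complex I by its symbol only and was placed in none of these parts (-0.0027, not called).

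The clearest rises of complex I lay in the membrane arm. Ndufab1, the mitochondrial acyl carrier protein that is also a subunit of the arm, read 1012, 1021, 1254, 1168 and 1097 in vehicle animals 1 to 5 and 1434, 1416, 1443, 1470 and 1531 with RG3487. Every treated liver was above every vehicle liver (log2 change 0.39 ± 0.06 SE, 1.31-fold, limma adjusted p = 0.00118). Ndufa8, an accessory subunit with twin cysteine motifs, read 782, 783, 883, 826 and 938 in vehicle livers and 1071, 1120, 1033, 1124 and 1173 with RG3487, again without overlap (0.39 ± 0.06, 1.31-fold, limma adjusted p = 0.0013). Ndufb7, a subunit of the same cysteine-rich type, read 689, 721, 806, 743 and 802 against 911, 1033, 935, 1019 and 997 (0.37 ± 0.06, 1.30-fold, limma adjusted p = 0.00133). Ndufc2, which lies in the middle of the arm, read 1007, 1016, 1140, 1137 and 1086 against 1314, 1305, 1426, 1337 and 1356 (0.32 ± 0.05, 1.25-fold, limma adjusted p = 0.0015). In each of the 4 genes the lowest treated liver exceeded the highest vehicle liver.

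Ndufs4, an accessory subunit needed to attach the N module, had the largest change in complex I. Relative to its signal level, it also had the widest spread among treated animals there. Its signal was 166, 174, 188, 163 and 158 in the vehicle group and 365, 215, 236, 179 and 290 with RG3487, so RG3487 animal 4 lay below vehicle animal 3. The log2 change was 0.52 ± 0.15 (1.43-fold, limma adjusted p = 0.0213), and the call was lost with quantile normalization (adjusted p = 0.0639) and without RG3487 animal 5 (0.0555; range over the alternatives 0.00133 to 0.0639). Ndufa12, another N module subunit, read 754 to 852 in vehicle livers (median 782) and 842 to 1165 with RG3487 (median 966), with a change of 0.29 ± 0.08 (limma adjusted p = 0.0156). It was not called with centred arrays (adjusted p = 0.0881; range over the alternatives 0.000348 to 0.0881). In the Q module Ndufs7, which carries the last iron-sulfur cluster before ubiquinone, changed by 0.19 ± 0.06 (limma adjusted p = 0.0411). That call was lost with centred arrays, quantile normalization, no filter or eBayes without trend (adjusted p over the alternatives 0.000798 to 0.254), and without any single animal other than vehicle animal 3.

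The member that fell was Ndufv1, the flavoprotein that binds NADH and takes its electrons. Its signal was 904, 890, 929, 971 and 929 in the vehicle group and 775, 726, 874, 792 and 776 with RG3487, with all treated livers below all vehicle livers. The change was -0.23 ± 0.06 (1.17-fold lower, limma adjusted p = 0.0126), and with control-based scaling it was -0.03 (adjusted p = 0.662; range 0.00406 to 0.662). Ndufv2, its iron-sulfur partner, read 1498, 1416, 1662, 1572 and 1598 against 1794, 1918, 2125, 1631 and 1600, with a change of 0.22 ± 0.08 that was not called (adjusted p = 0.0553) but was with RG3487 animal 4 or 5 left out (0.0432 and 0.0353). The log2 ratio of Ndufv1 to Ndufv2 within each array, which no scaling by a constant alters apart from the pseudocount, was -0.10 to 0.07 in vehicle livers and -0.65 to -0.29 with RG3487 relative to the vehicle mean. Like the ratios below, it was picked with its values in view and carries no test. Where the groups do not overlap, such a ratio shows unequal values of the pair, not which gene moved. Ndufs1, the largest core subunit of the N module, read 673 to 840 and 764 to 877, and its change of 0.15 ± 0.07 was called with vehicle animal 3 left out (adjusted p = 0.0365) and not otherwise among the 10 arrays left out in turn.

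The other rises in complex I, named after their values were seen, were those of Ndufb1 (0.25 ± 0.07, limma adjusted p = 0.0224) and Ndufa6 (0.21 ± 0.05, adjusted p = 0.0135). Leaving out vehicle animal 2, or else RG3487 animal 5, ended the call of Ndufb1 (adjusted p up to 0.0537), and neither gene was called with centred arrays. Ndufa5 changed by 0.35 ± 0.14 without a call (adjusted p = 0.0778), with treated livers from 196 to 316, and was called with vehicle animal 5 left out (0.0474). Ndufa1 had signals of 1986 to 2235 in vehicle livers and 1860 to 1973 with RG3487, with no overlap, yet its change of -0.12 ± 0.05 was not called (adjusted p = 0.0684). It was called lower with centred arrays (-0.20) and quantile normalization (-0.13), and turned to 0.07 with control-based scaling. Ndufv3 was read by a bright and a dim probe set, at -0.08 ± 0.08 and 0.04 ± 0.12, neither called. Ndufa7 was read at 0.12 ± 0.08 by its bright probe set, while its dim probe set, just outside the filter, had signals of 22 to 41 in the vehicle group and 43 to 47 with RG3487 (0.33 with no filter, limma adjusted p = 0.0452).

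**Figure D3:**
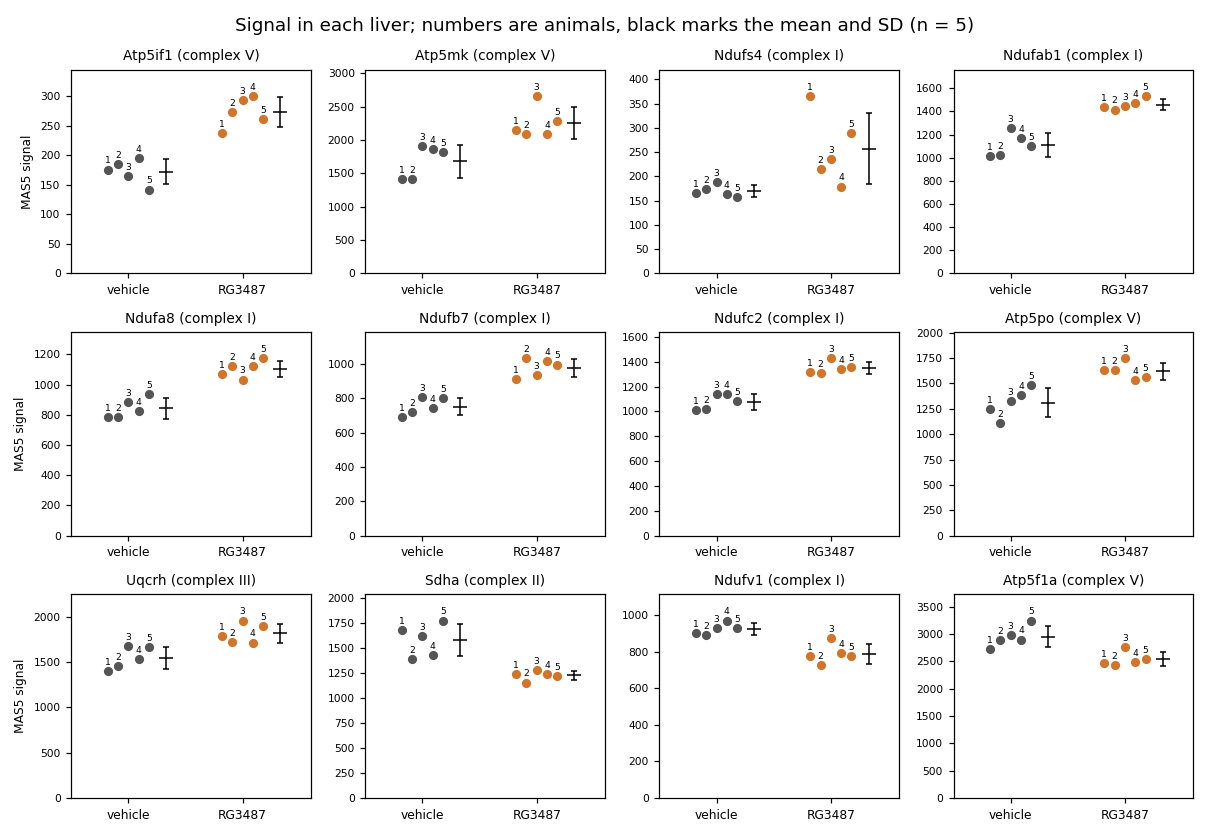
MAS5 signal (vertical axes, from 0) of 12 called members in each of the 5 vehicle (grey) and 5 RG3487 (orange) livers, with the animal's number above each point and the group mean and SD in black. Ndufab1, Ndufa8, Ndufb7, Ndufc2, Atp5if1 and Atp5mk were higher in every treated liver than in any vehicle liver, Sdha and Ndufv1 were lower in every treated liver, and the groups of Ndufs4 and Atp5f1a overlapped.

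In complex II, succinate dehydrogenase, which also belongs to the citric acid cycle, 1 of 5 tested probe sets fell and 0 rose, beside 7.16% and 20.5% of all probe sets. Sdha, the flavoprotein that oxidises succinate, read 1678, 1386, 1618, 1429 and 1771 in the vehicle group and 1237, 1152, 1275, 1240 and 1213 with RG3487. Every treated liver was below every vehicle liver (log2 change -0.36 ± 0.07 SE, 1.28-fold lower, limma adjusted p = 0.00328). With control-based scaling the change was -0.16 and was not called (adjusted p = 0.0611; range 0.00213 to 0.0611). Sdhb, the iron-sulfur subunit bound to Sdha, read 1615, 1692, 1802, 1650 and 1870 against 1843, 1956, 2006, 1857 and 1904, a change of 0.15 ± 0.05 that was not called (adjusted p = 0.0549) but was with vehicle animal 5 left out (0.0298). The membrane anchors Sdhc (0.08 ± 0.06) and Sdhd (0.06 ± 0.06 and 0.03 ± 0.09 by 2 probe sets) were not called either. The log2 ratio of Sdha to the mean of the other 3 subunits within each array was -0.12 to 0.20 in vehicle livers and -0.53 to -0.38 with RG3487, so the groups did not overlap.

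In complex III, the cytochrome bc1 complex, 2 of 8 tested probe sets rose (25%, against 20.5% of all probe sets) and 0 fell, with a median change of 0.02. That median ran from -0.013 to 0.053 with 1 array left out. It was negative without vehicle animal 2 or RG3487 animal 3, and moved by over 1.5 times without any 1 array other than vehicle animal 4 and RG3487 animals 4 and 5. Uqcrh, the acidic hinge subunit that helps dock cytochrome c, read 1399, 1453, 1675, 1532 and 1670 in vehicle livers and 1794, 1727, 1961, 1718 and 1896 with RG3487 (0.23 ± 0.06, 1.18-fold, limma adjusted p = 0.0184). Uqcr11, a small accessory subunit, read 1224, 1118, 1236, 1220 and 1353 against 1367, 1375, 1624, 1381 and 1504 (0.23 ± 0.07, limma adjusted p = 0.0207). The groups did not overlap in either gene, and neither was called with centred arrays (adjusted p = 0.155 and 0.163; ranges 0.000294 to 0.155 and 0.000207 to 0.163). Uqcrfs1, the Rieske iron-sulfur protein, changed by 0.06 ± 0.05, and the core proteins Uqcrc1 and Uqcrc2 by 0.01 ± 0.06 and 0.00 ± 0.05, none of them called. Cyc1, the cytochrome c1 of this complex, was called higher and is given with the electron carriers, since its symbol lies outside the rule. A dim second probe set of Uqcrc2 gave -0.03 ± 0.11.

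In complex IV, cytochrome c oxidase, 1 of 10 tested probe sets rose (10%, against 20.5% of all probe sets) and 0 fell, with a median of 0.07 that was 0.11 without vehicle animal 5. Cox6a1, a subunit present in liver and most tissues, read 1740, 1736, 1843, 1779 and 1860 in vehicle livers and 1972, 1912, 2168, 2077 and 1965 with RG3487. Although the groups did not overlap, the change was small (0.17 ± 0.05, 1.125-fold, limma adjusted p = 0.0234), and centring ended the call (adjusted p = 0.278; range 0.000194 to 0.278). Leaving out any 1 of vehicle animal 1, vehicle animal 2 and RG3487 animal 4 also ended it (up to 0.0555), as did eBayes without trend. Cox4i1, a regulatory subunit that binds adenine nucleotides, read 3291 to 4082 (median 3752) and 3182 to 3597 (median 3320), a change of -0.14 ± 0.06 that was not called (adjusted p = 0.0976) but was with vehicle animal 1 left out (0.0335). Cox7b changed by -0.14 ± 0.07 (adjusted p = 0.157), and was called lower with RG3487 animal 3 left out (0.0474). Both of these turned positive, at 0.06 each, with control-based scaling. Cox5b (0.05 ± 0.09), Cox6b1 (0.08 ± 0.06) and Cox8a (0.06 ± 0.06) were not called. Cox5a was read here by a dim probe set, at 70 to 93 against 82 to 101 (0.20 ± 0.09, adjusted p = 0.117). The muscle forms of these subunits were not analysed here. Cox6c-ps1, annotated as a pseudogene of Cox6c, matched the rule but lay below the dimness limit, at 21 to 40 and 16 to 39.

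In complex V, ATP synthase, 7 of 16 tested probe sets rose and 1 fell (43.8% and 6.25%, against 20.5% and 7.16% of all probe sets), with a median of 0.11 and a range from -0.21 to 0.62. The median was 0.063 without RG3487 animal 3 and also 0.063 with no filter. With centred arrays 2 rose and 1 fell, near the 11.4% and 11.2% of all probe sets, and with quantile normalization 7 and 1 (against 11.9% and 10%). Of the parts of the enzyme, 3 of 4 genes of the peripheral stalk rose, 1 of 5 of the F1 head rose and 1 fell, and 2 of 5 of the other membrane part rose. The 1 c-ring gene measured singly, Atp5mc3, changed by 0.00 ± 0.05, and was called higher with quantile normalization (0.14, adjusted p = 0.016).

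Atp5if1, the small protein that binds the F1 head and stops ATP synthase from running backwards, showed the largest change of any member. Its signal was 176, 185, 165, 195 and 142 in vehicle animals 1 to 5 and 238, 273, 294, 300 and 262 with RG3487. No treated liver overlapped the vehicle group (log2 change 0.62 ± 0.09 SE, 1.54-fold, limma adjusted p = 0.000613), and the call was made with each of the 10 arrays left out in turn. A pair of other Atp5if1 probe sets lay below the dimness limit and did not show this: 1 read 17 to 39 and 17 to 23, and the other, of a type that can cross-hybridise, read 26 to 42 and 10 to 33. With no filter they gave -0.16 (adjusted p = 0.411) and -0.41 (adjusted p = 0.0833), so the rise rests on 1 probe set. Relative to Atp5f1b, the catalytic subunit it binds, the log2 ratio within each array was -0.32 to 0.18 in vehicle livers and 0.56 to 0.90 with RG3487.

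The stalk and membrane genes moved by less. Atp5mk, a small membrane subunit linked to dimers of the enzyme, read 1417, 1408, 1903, 1866 and 1822 against 2153, 2087, 2655, 2083 and 2285, without overlap (0.42 ± 0.10, 1.34-fold, limma adjusted p = 0.00959). Atp5po, the stalk subunit that grips the F1 head, read 1250, 1111, 1330, 1383 and 1485 against 1634, 1630, 1747, 1531 and 1563 (0.31 ± 0.07, 1.24-fold, limma adjusted p = 0.00964). Atp5pd, another stalk subunit, read 2215, 2284, 2442, 2373 and 2532 against 2643, 2833, 3065, 2804 and 2690 (0.24 ± 0.05, limma adjusted p = 0.007). All treated livers exceeded all vehicle livers in these 3 genes. With centred arrays Atp5po and Atp5pd were not called (adjusted p = 0.0765 and 0.0957; ranges 0.000196 to 0.0765 and 0.000117 to 0.0957). Atp5pf, also of the stalk, rose by 0.22 ± 0.07 (limma adjusted p = 0.0365), a call that centring, quantile normalization and eBayes without trend ended (adjusted p over the alternatives 0.00047 to 0.225), as did leaving out any 1 of vehicle animals 1, 3 and 4 and of RG3487 animals 2, 3 and 5. Atp5mpl, a membrane subunit named after its values were seen, rose by 0.20 ± 0.07 (adjusted p = 0.0393), and that call held only without vehicle animal 5 or RG3487 animal 4 among the 10 arrays left out in turn. It was also lost with centred arrays (0.12, adjusted p = 0.269), quantile normalization (0.11, adjusted p = 0.316) and eBayes without trend (range over the alternatives 0.000516 to 0.316).

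Within the F1 head the genes went different ways. Atp5f1a, the alpha subunit, read 2724, 2890, 2980, 2898 and 3246 in vehicle livers and 2472, 2427, 2759, 2483 and 2545 with RG3487. RG3487 animal 3 lay above vehicle animal 1, and all other treated livers were below the vehicle range (-0.21 ± 0.06, 1.16-fold lower, limma adjusted p = 0.014). With control-based scaling the change was -0.02 (adjusted p = 0.786; range 0.00683 to 0.786). Atp5f1b, the beta subunit that holds the catalytic sites, read 3456 to 3691 against 3170 to 3763 and was not called (-0.08 ± 0.05, adjusted p = 0.266), with 0.00 under quantile normalization and 0.11 under control-based scaling. With RG3487 animal 3 left out it was called lower (-0.13, adjusted p = 0.0403). Atp5f1d, the delta subunit of the central rotor, read 1054, 1037, 1230, 1117 and 1131 against 1339, 1306, 1363, 1267 and 1362, without overlap (0.25 ± 0.06, 1.19-fold, limma adjusted p = 0.00655), and was not called with centred arrays (adjusted p = 0.0673; range 0.000152 to 0.0673). The log2 ratio of Atp5f1a to Atp5f1b within each array was -0.08 to 0.07 in vehicle livers and -0.19 to -0.07 with RG3487, so these groups overlapped.

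Members tended to be high or low together in the same animal. RG3487 animal 3 had the highest signal of its group in 55 of the 75 tested members, vehicle animal 5 in 39 and vehicle animal 3 in 27, while vehicle animal 1 was the lowest of its group in 35 and vehicle animal 2 in 29. The median over all members, relative to the vehicle mean, was -0.08, -0.07, 0.06, -0.01 and 0.09 in vehicle animals 1 to 5 and 0.03, 0.10, 0.18, 0.06 and 0.10 in RG3487 animals 1 to 5, so the groups overlapped. Over all probe sets tested the same animals were not ordered this way: vehicle animal 5 had the lowest median (-0.04) and RG3487 animal 3 the lowest of its group (0.06), and there the groups did not overlap. In complex V all treated livers were between 0.06 and 0.29 and vehicle livers between -0.09 and 0.12. In complex II the ranges were -0.0030 to 0.12 and -0.09 to 0.14. Without RG3487 animal 3, 16 members were called higher and 6 lower.

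**Figure D4:**
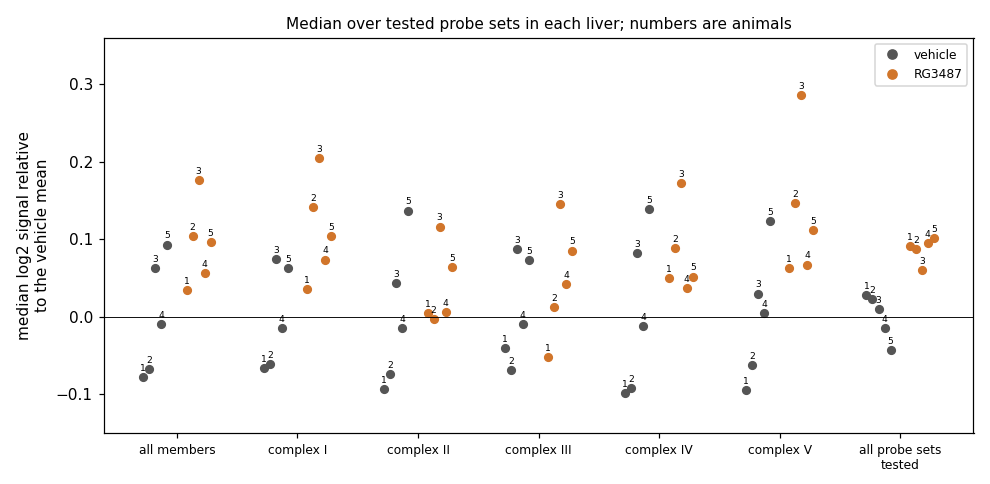
Median log2 signal of each liver over the tested members of all complexes, of each complex, and over all probe sets tested, relative to the vehicle mean of each probe set (vertical axis); grey points are vehicle and orange points RG3487 livers, with animal numbers. RG3487 animal 3 was the highest treated liver in each complex, and the groups overlapped in each complex but not over all probe sets.

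The changes differed with signal level, in bins chosen after the values were seen. Of 20 members with a mean signal of 2000 or more, 1 rose and 1 fell, whereas 18.2% of the 545 tested probe sets of that brightness were higher and 33% lower. Of 33 members between 1000 and 2000, 12 rose and 1 fell, against 30.7% and 15.6% of 544 probe sets. Of 22 dimmer members, 6 rose and 1 fell, against 20.1% and 5.43% of 10805. Across the 75 members log2 change and mean log2 signal had a Spearman rho of -0.26 (Pearson r -0.28), as a description of probe sets that share the same 10 arrays. Over all 11894 probe sets these were 0.05 and -0.04. The part of signal level in the calls was not tested.

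Genes that build, feed or regulate the chain were examined as 4 lists. Assembly factors, which insert cofactors and join subunits, were higher in 17 of 49 tested probe sets (15 of 43 genes, 34.7% of probe sets, against 20.5% of all probe sets) and lower in 0 (against 7.16%), with a median change of 0.20 (against 0.08). With centred arrays and with quantile normalization 8 were higher and 0 lower, beside 11.4% and 11.9% of all probe sets that were higher. Atpaf1, a chaperone of the F1 head, changed by 0.53 ± 0.12 (limma adjusted p = 0.00719), and a second, brighter probe set by 0.07 without a call. Cox15, which makes haem A for complex IV, rose by 0.45 ± 0.08 (101 to 144 in mean signal, adjusted p = 0.00247), and its other 2 probe sets were also called higher, at 0.39 and 0.38. Uqcc6, an assembly factor of complex III, rose by 0.44 ± 0.08, and Sco1, a copper chaperone of complex IV, by 0.38 ± 0.09.

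Among electron carriers and the enzymes that feed them, 5 of 20 tested probe sets were higher (25%, near the 20.5% of all probe sets) and 2 lower, with 4 and 4 under centring. Those that rose included Coq5 (0.56 ± 0.10) and Coq3 (0.46 ± 0.10), methyltransferases of ubiquinone synthesis, Dhodh, which passes electrons from pyrimidine synthesis to ubiquinone (0.55 ± 0.14), and Cyc1, the cytochrome c1 of complex III (0.37 ± 0.08, mean signal 1251 to 1619, limma adjusted p = 0.00571). Cyc1 lies outside the members only because its symbol does not begin with Uqcr. Etfa, a subunit of the flavoprotein that carries electrons from fatty acid oxidation, was lower (-0.20 ± 0.06, adjusted p = 0.0198), was not called with control-based scaling (adjusted p = 0.932) and was named after its value was seen. In the list for exchange of ATP and ADP and for uncoupling, 7 of 11 tested probe sets (5 of 9 genes) were higher and 0 lower. The higher share was 63.6%, against 20.5% of all probe sets. Under centring 4 were higher and 0 lower (against 11.4% and 11.2%). Those called included the outer membrane channels Vdac1 (0.30 ± 0.06), Vdac2 (0.30 ± 0.07) and Vdac3 (0.22 ± 0.07), and the adenylate kinase Ak3 (0.33 ± 0.07). Slc25a3, named after its values were seen, was also called (0.18 ± 0.05). Named likewise, Slc25a4 (-0.01 ± 0.09), Slc25a5 (0.10 ± 0.05) and Ucp2 (-0.20 ± 0.15) were among those not called. Slc25a5 was called higher with quantile normalization (0.21) and control-based scaling (0.29), and centring ended the call of Slc25a3. Vdac3 was not called with centred arrays (adjusted p = 0.182) or with eBayes without trend.

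Among regulators of mitochondrial gene expression, 4 of 21 tested probe sets were higher (19%, near the 20.5% of all probe sets) and 1 lower, with 4 and 2 under centring. Tfb1m, which methylates the mitochondrial ribosomal RNA, changed by 0.51 ± 0.12, Ssbp1, which coats single-stranded mitochondrial DNA, by 0.41 ± 0.07, and the transcription factor Yy1 by 0.31 ± 0.06 (limma adjusted p = 0.00206). Polg2, the accessory subunit of the mitochondrial DNA polymerase, was lower (-0.48 ± 0.13, adjusted p = 0.0157), but not called with control-based scaling (adjusted p = 0.0631). Ppargc1a, the coactivator of respiratory chain genes known as PGC-1 alpha, was named after its values were seen and lay below the dimness limit. It read 31, 27, 46, 50 and 17 in vehicle livers and 12, 17, 25, 9 and 10 with RG3487, and with no filter its change was -0.69 ± 0.19 (limma adjusted p = 0.0235). At signals this dim the log2 scale with a pseudocount of 16 shrinks a fold, and the groups overlapped.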

How the data were processed

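Liver RNA of 5 vehicle and 5 RG3487 rats was measured on 1 Affymetrix array per animal, labelled from 1 ug of total RNA per the labels' protocols. The deposited values are 1 intensity per probe set and array, whole and not logged, which MAS5 produced per the submitters' processing notes. For MAS5, neither the version nor the scaling target is stated in the labels. Precision is limited by the number of arrays.

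The table lists 15899 rows, of which 40 are controls. Of the others, 12562 carried 1 gene symbol in the platform annotation, 332 several and 2965 none. Symbols were looked up by Entrez identifier or accession, and no member's symbol changed. Signals were analysed as log2(signal + 16), so folds are on that scale and understate changes of dim genes. The dimmest 25% by mean over all 10 arrays (a limit near a signal of 40.2) were left out. The dimmest member inside was a probe set of Ndufv3, with a mean of 61.3, and the next outside was 1 of Ndufa7, at 39. Groups were compared in R 4.3.3 with limma 3.58.1 (lmFit, eBayes with trend), two-sided, with Benjamini-Hochberg adjustment over 11894 probe sets, and the code was tested on simulated data. Members were counted by probe set. Lists were described by counts and medians, without a set test.

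The members and lists were chosen with earlier results of these data known. Members named were up to 6 called genes of largest change per complex, every gene that fell, catalytic subunits, isoform pairs and genes whose probe sets differ, and up to 4 called genes from each other list. Exceptions are marked. Rats with the same number in both groups are different animals, so numbers were not used as pairs. Their deviations from the group means correlated between -0.04 and 0.17. No array batch is stated in the labels. Alternatives were pseudocounts of 1 and 64, 3 other scalings (18 control probe sets in the last), no filter or a 50% filter, eBayes without trend or robust, the replicate number as a block, an adjusted p under 0.1, the brightest probe set per gene, and each array left out.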

Additional observations from a re-analysis of the deposited data

Results flagged for a closer look

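Values were compared within each group of 5 by the gap of the highest or lowest animal to its nearest neighbour, as a share of the group's range, with 0.71 as the limit. Of 132 groups checked, 4 passed it, and chance alone gives about 1 in 20. On the log2 scale, the Ndufv3 signal of vehicle animal 3 (723, the others 898 to 914) lay far below, with a ratio of 0.925. For Atp5f1b, vehicle animal 5 (3691, the others 3456 to 3494) had a ratio of 0.834 and RG3487 animal 3 (3763, the others 3170 to 3310) a ratio of 0.748, both high. For the dimmer Atpaf1 probe set, vehicle animal 3 was the high one, with a ratio of 0.75. Vehicle animals 3 and 5 and RG3487 animal 3 were also the animals most often highest over all members.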

How the results depend on the processing

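With pseudocounts of 1 or 64, robust eBayes and the brightest probe set per gene, the counts higher and lower stayed within 1.5 times of 19 and 3 and in each complex. With the replicate number as a block, 22 members were called, 20 of them shared with the 22 reported, and no count moved by more than 1.5 times. Among the genes named, the block ended the calls of Ndufs7 (adjusted p = 0.07), Atp5mpl and Vdac3, and Ndufa5 was called higher. Without trend, complex IV had 0 higher. With the dimmest 50% left out, complex II had 1 higher.

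By scaling, centred arrays gave 7 members higher and 5 lower: 5 and 3 in complex I, 0 higher in complexes III and IV, and 2 higher in complex V, with medians of 0.0028 over all members, 0.039 in complex I, -0.015 in complex II, -0.054 in complex III, -0.0082 in complex IV and 0.030 in complex V. Quantile normalization gave 2 lower in complex I. Control-based scaling gave 60 higher and 0 lower: 28 and 0 in complex I, 4 and 0 in complex II, 7 in complex III, 8 in complex IV, 13 and 0 in complex V, with medians of 0.28 over all members and 0.31, 0.26, 0.22, 0.27 and 0.30 in complexes I to V. At an adjusted p under 0.1, 5 members were lower, complex I had 14 higher and 2 lower, complex II 1 higher and complex IV 1 lower.

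With each array left out in turn, 15 to 23 members were higher and 3 to 6 lower, the 6 without RG3487 animal 3. Complex I had 7 to 12 higher and 1 to 2 lower, complex II 0 to 1 higher, complex IV 0 to 1 higher and 0 to 1 lower, and complex V 5 to 7 higher and 1 to 2 lower. Complex II gained its 1 without vehicle animal 5. Complex IV had 1 lower without vehicle animal 1 or RG3487 animal 3. Medians ran from 0.059 to 0.10 over all members, 0.096 to 0.15 in complex I, 0.029 (without vehicle animal 1) to 0.095 in complex II, -0.013 to 0.053 in complex III, 0.047 to 0.11 in complex IV and 0.063 to 0.14 in complex V. Of the 22 calls, 16 were made in all 10 of these fits.

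Among the genes named, signs turned in these, none of which was called as deposited. Centred arrays gave -0.015 for Sdhd, -0.071 for Uqcrc1, -0.076 for Uqcrc2, -0.022 for Uqcrfs1, -0.024 for Cox5b, -0.00023 for Cox6b1, -0.016 for Cox8a and -0.075 for Atp5mc3. Quantile normalization gave -0.040 for Uqcrc1, -0.022 for Uqcrc2 and 0.0032 for Atp5f1b. Control-based scaling gave 0.12 for Ndufv3, 0.057 for Cox4i1, 0.060 for Cox7b, 0.11 for Atp5f1b and 0.072 for Ndufa1. With an array left out, Uqcrc1 ranged from -0.018 to 0.042, Uqcrc2 from -0.016 to 0.023 and Atp5mc3 from -0.021 to 0.028. Beyond the alternatives' own construction, the cause was not tested.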

Other observations

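The 7 probe sets that were left out because they name several genes were all tested. Of these, 2 were higher and 0 lower, with log2 changes from 0.03 to 0.34 and a median of 0.12, in limma's test. Their genes cannot be named singly.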
